A study of Mus musculus with 6 samples.

Results

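The mitochondrially encoded mRNAs were all table entries whose gene symbol starts with mt-, and 13 of the 24879 genes in the table met that rule. All 13 are protein-coding, and they are the full protein-coding set of the mitochondrial chromosome, which in the GENCODE M21 annotation also carries 2 rRNA genes and 22 tRNA genes that were not analysed here. The libraries were made from 661W cells, an immortalised mouse line described as derived from cone photoreceptors. Light cells (3 libraries) spent 24 h under a cold white fluorescent lamp of 2000 ± 100 lux, and Dark cells (3 libraries) spent 24 h without light. Both groups were the same line in DMEM with serum and antibiotics, with no other agent or allele named. Nothing in the labels says that the 3 libraries of a group came from separate cultures, so the p-values measure the spread between these libraries, which may be technical.

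The mitochondrial genome is a small circle read from both strands into long transcripts, from which mRNAs are released mainly by cutting out the tRNAs between them. Its protein-coding genes all encode membrane subunits of oxidative phosphorylation. Complex I takes electrons from NADH, complex III passes them to cytochrome c, complex IV passes them to oxygen, and complex V makes ATP from the resulting proton gradient. Every other subunit of these complexes, and the whole of complex II, is encoded in the nucleus. Photoreceptors of the retina are rich in mitochondria.

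Values are FPKM as deposited, which are fragments scaled by transcript length and by library size, so levels are per unit length. Comparing levels of different genes is approximate, because RNA capture and the counting of fragments shared between genes are not known. Fold changes are Light minus Dark on the log2(FPKM + 1) scale, on which the change of weakly expressed genes comes out too small. A gene was called when its limma p-value, adjusted by Benjamini-Hochberg over all 11068 genes that averaged 1 FPKM or more, was under 0.05. The FPKM of all genes summed to 459198 to 471471 in Light libraries and 411186 to 434372 in Dark libraries, and read totals, and so the depth behind each value, are unknown. Of 13 cone markers, 6 (Arr3, Cngb3, Opn1mw, Otx2, Pde6c and Rcvrn) were listed at 0 in every library and 0 reached a mean of 1 FPKM, with a summed level of 0.963 to 1.37 FPKM in Light and 0.949 to 2.10 FPKM in Dark. The 6 rod markers summed to 0.188 to 0.278 FPKM in Light and 0.131 to 0.209 FPKM in Dark. Of the 5 fibroblast markers, Col1a1, Col1a2 and Pdgfra passed 1 FPKM, and the list summed to 336 to 364 FPKM in Light and 680.1 to 787 FPKM in Dark. Of the 4 Müller glia markers, Glul, Slc1a3 and Vim passed 1 FPKM, and the list summed to 1090.3 to 1107 FPKM in Light and 913 to 1077 FPKM in Dark. Cone and rod markers were thus at or near 0 in cells that the labels call photosensitive. The part of these markers in the mitochondrial results was not tested.

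Light cells held less mt-Co1, mt-Nd5 and mt-Nd6 mRNA and more mt-Nd3 mRNA than Dark cells. The largest of these differences was in mt-Co1, which averaged 2835 ± 351 FPKM in Light and 4674 ± 513 FPKM in Dark (SD, n = 3 each). The remaining 9 mRNAs were not called. The libraries of the groups did not overlap in the 4 called genes, beside 52.6% of all tested genes (5822). Of all 13, 4 were called (30.8%), which is no larger a share than the 35.6% of all tested genes that were called (3938 of 11068). Split by direction, 3 of 13 (23.1%) were called lower, beside 16.4% of all tested genes, and 1 of 13 (7.69%) was called higher, beside 19.2%. The change was negative for 11 of the 13, with a median of -0.43 over the 13 and -0.01 over all tested genes. Among these 11, mt-Nd2, mt-Co2 and mt-Atp6 turned positive when libraries were scaled to an equal mitochondrial sum. That scaling uses the sum of the 13 genes themselves, whose mean was lower in Light. It moved the median change of all tested genes to 0.33, so a reversed sign or a lost decrease there is partly built in. In bulk RNA, fewer cells of a type and less RNA per cell cannot be told apart.

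**Figure D1:**
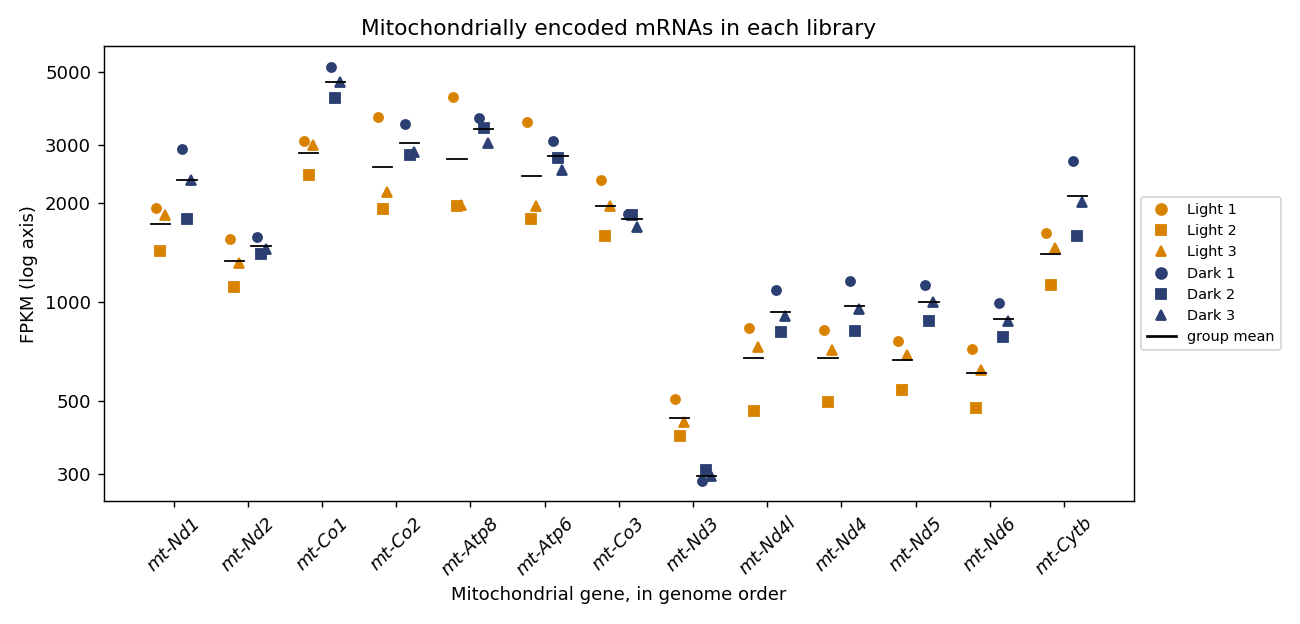
FPKM of each of the 13 mitochondrially encoded mRNAs (log axis) in genome order, with Light libraries in orange left of Dark libraries in blue, 1 symbol shape per replicate number and a black bar at the group mean. The 3 Light libraries lie wholly below the Dark libraries in mt-Co1, mt-Nd5 and mt-Nd6 and wholly above them in mt-Nd3, and the groups overlap in the other 9.

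Complex I holds 7 of the 13 products, and its mitochondrial subunits form the proton-pumping arm in the membrane. mt-Nd5 mRNA (chrM:11742-13565, plus strand, build GRCm38) stood at 763, 542 and 692 FPKM in Light 1, 2 and 3 and at 1126, 878 and 999 FPKM in Dark 1, 2 and 3. Every Light library lay below every Dark library. Its change was -0.60 (SE 0.15, limma adjusted p = 0.0222). mt-Nd6 (chrM:13552-14070) is the only one of the 13 on the minus strand. It measured 722, 477 and 623 FPKM in Light and 995, 783 and 878 FPKM in Dark, again without overlap, and fell by 0.56 on the log2 scale (SE 0.16, limma adjusted p = 0.0367). Both calls were lost in fits without Light 2 (limma adjusted p = 0.0697 for mt-Nd5 and 0.0978 for mt-Nd6), without Light 3 (0.0692 and 0.0961) and without Dark 3 (0.0788 and 0.106), and the mt-Nd6 call also without Dark 1 (0.0722). They were also lost with no filter on low values (0.0561 and 0.0827) and when libraries were scaled to an equal mitochondrial sum (0.626 and 0.690, the highest of 16 alternative settings, where the lowest were 5.07e-06 and 1.62e-05).

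mt-Nd5 and mt-Nd6 face each other across the genome, and their annotated ends share 14 bases (chrM:13552-13565). The shared stretch is printed because a fragment from it cannot be given to 1 gene without its strand, and no source used here gives the strand setting of the authors' counting. The capitals mark the stop codon of each mRNA in the last 21 bases of its own strand.
mt-Nd5, plus strand, chrM:13545-13565: tactcaattaatctcgagTAA
mt-Nd6, minus strand, chrM:13552-13572: atcgagattactcgagatTAA
The ratio of mt-Nd6 to mt-Nd5 FPKM was 0.946, 0.881 and 0.900 in Light and 0.884, 0.892 and 0.880 in Dark. These ratios overlapped between the groups (exact permutation test, 2-sided, p = 0.3, where 3 against 3 libraries cannot go below 0.1).

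mt-Nd3 was the exception in direction. It had 506, 391 and 431 FPKM in Light and 286, 308 and 295 FPKM in Dark, so every Light library was above every Dark library. On the linear scale the Light mean was 1.49 times the Dark mean, and the log2 change was 0.57 (SE 0.10, limma adjusted p = 0.00835). This call held in each of the 6 fits that leave out 1 library, but with quantile normalization the change was 0.31 and the adjusted p 0.0644 (0.000848 to 0.0644 over the 16 alternative settings). mt-Nd3 had the lowest mean FPKM of the 13 in both groups. Within Dark it was also the steadiest of them, with a coefficient of variation (SD over mean) of 3.72%.

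**Figure D2:**
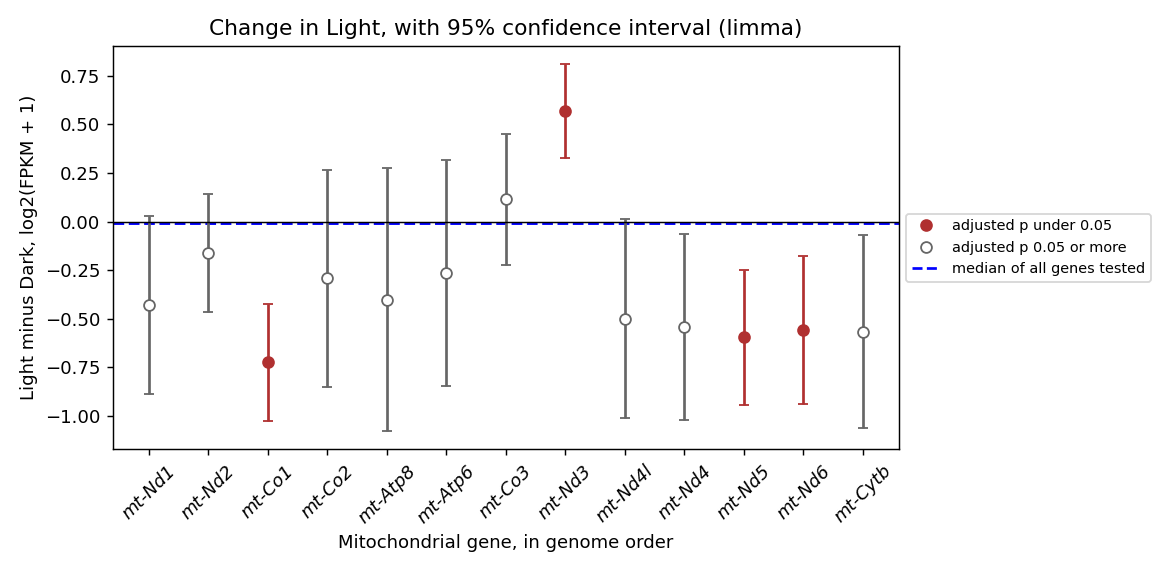
Light minus Dark change on the log2(FPKM + 1) scale for each mitochondrially encoded mRNA in genome order, with 95% confidence intervals from limma. Filled red points have an adjusted p under 0.05, and the dashed line is the median of all genes tested, at -0.01. The intervals of mt-Co1, mt-Nd5 and mt-Nd6 lie below 0, and that of mt-Nd3 lies above it, at 0.33 to 0.81.

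A nuclear pseudogene on chromosome 1, Gm28438 (chr1:24612775-24613119), matches 345 of the 348 bases of mt-Nd3 (chrM:9459-9806) with 1 mismatch, T3C, counted from 1 at the first base of mt-Nd3. The first 33 bases of both are printed with that position in capitals, because no other base in the aligned stretch separates their fragments.
mt-Nd3: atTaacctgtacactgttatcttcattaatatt
Gm28438: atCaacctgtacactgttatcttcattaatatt
Next to it on chromosome 1 lie copies of mt-Nd4 (Gm28439, 876 bases), mt-Nd4l (Gm10222, 294 bases), mt-Co3 (Gm28437, 783 bases), mt-Atp6 (Gm10925, 678 bases) and mt-Co2 (Gm28661, 681 bases), each identical over its aligned length. Gm29216 matches 483 bases of mt-Co1 with 1 mismatch. Less close copies lie on other chromosomes. Gm4076 matches 954 bases of mt-Nd5 at 95.2% identity, Gm13339 matches 510 bases of mt-Nd2 at 96.7%, and Gm13340 and Gm13341 match the full length of mt-Co1 at 97.6% and of mt-Co2 at 95.9%. How the authors' counting shared fragments between these copies and the mitochondrial genes is not stated in the sources used here. No value of a copy was analysed here, so the levels of at least these 9 genes are uncertain to that extent. Only annotated pseudogene transcripts were searched, so a copy without an annotation would be missed. The 7 genes with an annotated copy on chromosome 1 had changes of -0.72 to 0.57, and the other 6 of -0.60 to -0.16. mt-Atp8, counted among the 6, lies between mt-Co2 and mt-Atp6. It shares 43 bases with mt-Atp6, which the copy Gm10925 also holds, so its level is not free of this uncertainty.

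mt-Nd4 and mt-Nd4l, neighbouring complex I genes usually read as 1 mRNA, kept close to a constant ratio across libraries. mt-Nd4 stood at 821, 496 and 713 FPKM in Light and 1154, 817 and 952 FPKM in Dark. mt-Nd4l stood at 831, 467 and 730.1 FPKM in Light and 1086, 813 and 905 FPKM in Dark. In both, Light 1 lay just above Dark 2 and the other Light libraries lay below all Dark ones. The changes were -0.54 for mt-Nd4 (SE 0.20, limma adjusted p = 0.0725) and -0.50 for mt-Nd4l (SE 0.22, limma adjusted p = 0.107), and neither was called. The ratio of mt-Nd4l to mt-Nd4 was 1.01, 0.940 and 1.02 in Light and 0.941, 0.995 and 0.951 in Dark (exact permutation test, 2-sided, p = 0.4). Their annotations share 7 bases at chrM:10167-10173.

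By contrast, mt-Nd3, which lies just upstream of mt-Nd4l across a tRNA gene, stood at 0.609, 0.839 and 0.590 times the mt-Nd4l level in Light and 0.264, 0.379 and 0.326 times in Dark. These ratios did not overlap (exact permutation test, 2-sided, p = 0.1, the smallest that 3 against 3 allows).

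mt-Nd1 and mt-Nd2, the complex I genes nearest the rRNAs, were not called. mt-Nd1 had 1926, 1428 and 1834 FPKM in Light and 2917, 1791 and 2352 FPKM in Dark. Its lowest Dark library, Dark 2, fell below Light 1 and Light 3. The change was -0.43 with a 95% confidence interval of -0.88 to 0.03 (limma adjusted p = 0.117). mt-Nd2 had 1557, 1114 and 1317 FPKM in Light and 1575, 1401 and 1453 FPKM in Dark. Here Light 1 sat at the level of the Dark libraries and the change was -0.16, with an interval of -0.47 to 0.14 (limma adjusted p = 0.335).

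For complex III the only mitochondrial product is cytochrome b, the subunit that carries the quinone sites. mt-Cytb mRNA stood at 1620.0, 1126 and 1457 FPKM in Light and 2685, 1591 and 2018 FPKM in Dark. Light 1 was slightly above Dark 2 and the other libraries were separated by group. The change of -0.57 (SE 0.21) was no smaller than that of mt-Nd6, but the Dark libraries spread more widely, with a coefficient of variation of 26.3%, the widest of the 13 in Dark, and it was not called (limma adjusted p = 0.0712).

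Complex IV has 3 mitochondrial subunits, which together form its catalytic core, and their mRNAs differed from one another. mt-Co1, whose product holds the site of oxygen reduction, stood at 3077, 2433 and 2995 FPKM in Light and 5188, 4162 and 4672 FPKM in Dark. The highest Light library was well below the lowest Dark library. Its change of -0.72 (SE 0.13, 95% confidence interval -1.02 to -0.42, limma adjusted p = 0.00789) was called in each of the 6 fits without 1 library. At an equal mitochondrial sum the change was -0.34 and the call was lost (limma adjusted p = 0.450, the highest of the 16 settings, and 1.35e-06 the lowest). Counted from the most abundant gene of each library, mt-Co1 ranked 7, 8 and 4 in Light and 1, 2 and 1 in Dark.

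mt-Co2, whose product takes electrons from cytochrome c, had 3652, 1919 and 2159.6 FPKM in Light and 3484, 2791 and 2854 FPKM in Dark. Light 1 exceeded every Dark library while Light 2 and Light 3 lay below them all. Its change was -0.29, with a 95% confidence interval of -0.85 to 0.27 (limma adjusted p = 0.347). mt-Co3 measured 2347, 1582 and 1958 FPKM in Light and 1849.6, 1836 and 1686 FPKM in Dark, where 2 Light libraries lay above the Dark range and 1 below it. Its change was 0.11, with an interval of -0.22 to 0.45 (limma adjusted p = 0.539), and the sign turned negative under quantile normalization, when libraries were scaled to equal totals and without Light 1.

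Within a library, mt-Co1 stood at 1.31, 1.54 and 1.53 times the mt-Co3 level in Light and 2.80, 2.27 and 2.77 times in Dark. Against mt-Co2 it stood at 0.843, 1.27 and 1.39 times in Light and 1.49, 1.49 and 1.64 times in Dark. mt-Nd3 stood at 0.164, 0.161 and 0.144 times the mt-Co1 level in Light and 0.0552, 0.0741 and 0.0631 times in Dark, and at 0.216, 0.247 and 0.220 times the mt-Co3 level in Light and 0.155, 0.168 and 0.175 times in Dark. None of these 4 ratios overlapped between the groups (exact permutation test, 2-sided, p = 0.1 for each, the smallest that 3 against 3 allows). For mt-Nd3 over mt-Co1 this was fixed in advance, since every Light library was already higher in mt-Nd3 and lower in mt-Co1. A ratio inside a library is untouched by how libraries are scaled, and a difference in it would show unequal change, not which mRNA changed. Among 8 ratios computed, 5 did not overlap, and with Benjamini-Hochberg adjustment over the 8 their exact permutation p is 0.16. Each of these 5 holds mt-Nd3 or mt-Co1, which were called in these same data, so the ratios add no separate support for those calls.

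mt-Co3 and mt-Co1 also differ in how their annotated mRNAs end. The last 21 bases of 4 genes are printed with the stop codon, or the lone T that stands in for it, in capitals. In genes of the lone-T kind the stop codon is completed by the poly(A) tail, so the tail begins inside the codon.
mt-Co1, chrM:6852-6872: acctatgtaaaagtaaaaTAA
mt-Co3, chrM:9370-9390: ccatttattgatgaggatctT
mt-Nd4, chrM:11524-11544: taattacaggcctgacaataT
mt-Cytb, chrM:15268-15288: aaatactaaaattatatccaT
The 3 genes that end 1 base into the codon, mt-Co3, mt-Nd4 and mt-Cytb, had changes of 0.11, -0.54 and -0.57. Their 95% confidence intervals overlapped, and the difference between them was not tested.

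Complex V has a pair of mitochondrial subunits in its membrane part, made from 1 shared mRNA. mt-Atp8 had 4204, 1955 and 1972 FPKM in Light and 3619.6, 3388 and 3048 FPKM in Dark. mt-Atp6 had 3516, 1781 and 1956 FPKM in Light and 3087, 2733 and 2518 FPKM in Dark. In both genes Light 1 was the highest of all 6 libraries, and Light 2 and Light 3 were the lowest. The changes were -0.40 for mt-Atp8 (95% confidence interval -1.08 to 0.27, limma adjusted p = 0.288) and -0.26 for mt-Atp6 (-0.85 to 0.32, limma adjusted p = 0.411). Their reading frames overlap by 43 bases on the plus strand, printed with the mt-Atp6 start codon in capitals, since a fragment from that stretch belongs to both.
mt-Atp8 and mt-Atp6, chrM:7927-7969: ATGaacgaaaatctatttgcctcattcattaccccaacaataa
The ratio of mt-Atp8 to mt-Atp6 was 1.20, 1.10 and 1.01 in Light and 1.17, 1.24 and 1.21 in Dark, and these overlapped (exact permutation test, 2-sided, p = 0.2). mt-Atp8 is the shortest of the 13, at 204 annotated bases, so its FPKM rests on the fewest fragments for its level.

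The order of the 3 Light libraries was the same for the whole set. Light 1 was the highest and Light 2 the lowest Light library in 13 of 13 genes. In Dark, Dark 1 was the highest in 12 of 13, mt-Nd3 being the exception, and Dark 2 was the lowest in 9. Among all tested genes, Light 1 was the highest Light library in 42.7% and Dark 1 the highest Dark library in 41.7%.

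How far Light 1 stood from its group varied by position. Its distance above the mean of Light 2 and Light 3, on the log2(FPKM + 1) scale, was 0.84 for mt-Co2, 1.10 for mt-Atp8 and 0.91 for mt-Atp6, which are neighbours on the chromosome. For the other 10 genes it ran between 0.19 for mt-Co1 and 0.51 for mt-Nd4l. The median over the 13 was 0.40, against 0.02 over all tested genes, and 7 of the 13 lay above the 95th percentile of all genes. In Dark, the distance of Dark 1 above the mean of Dark 2 and Dark 3 was largest at mt-Cytb (0.58) and mt-Nd1 (0.51) and was -0.07 at mt-Nd3. The median Dark distance was 0.26 over the 13 and 0.00 over all tested genes, and 0 of the 13 lay above the 95th percentile of all genes (0.63).

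**Figure D3:**
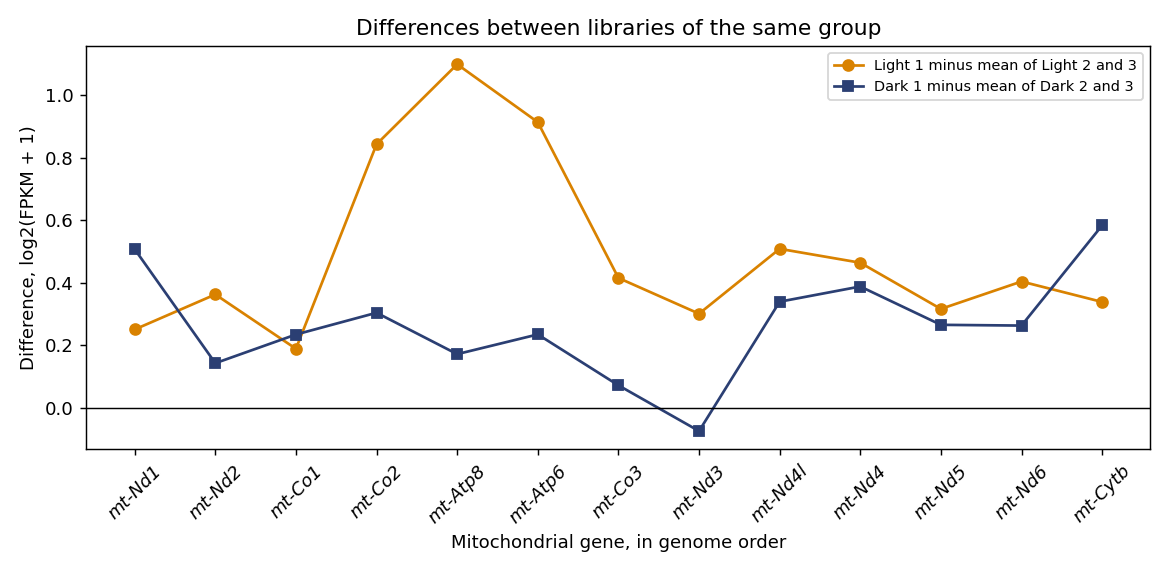
Difference between the first library of a group and the mean of its other libraries on the log2(FPKM + 1) scale, for Light in orange circles and Dark in blue squares, with genes in genome order. The Light line peaks at the neighbours mt-Co2, mt-Atp8 and mt-Atp6, at 0.84 to 1.10, while the Dark line is highest at mt-Cytb and mt-Nd1. Lines join genes to guide the eye.

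The coefficients of variation of the 13 genes ran from 12.4% to 47.7% in Light, with a median of 19.5%, and from 3.72% to 26.3% in Dark, with a median of 12.0%. The 146 other genes at or above the lowest mean level of the 13 had medians of 5.81% in Light and 10.7% in Dark. Leaving out Light 1 raised the number of called mRNAs to 8 of 13 (61.5%), while 31.3% of all tested genes were called without it. Those 8 were mt-Nd3, which was higher, and mt-Nd4, mt-Nd5, mt-Nd6, mt-Co1, mt-Co2, mt-Atp8 and mt-Atp6, which were lower. Without Light 1 the changes were -0.57 for mt-Co2 (limma adjusted p = 0.0270), -0.77 for mt-Atp8 (0.00897) and -0.57 for mt-Atp6 (0.0226). Over all 16 settings tried, the adjusted p ran from 0.00517 to 0.860 for mt-Co2, from 0.000373 to 0.966 for mt-Atp8 and from 0.00413 to 0.835 for mt-Atp6. Leaving out Dark 2 gave 7 called mRNAs, with mt-Nd1, mt-Nd4 and mt-Cytb lower in addition to the 4 first named. That share of 53.8% is close to the 53.1% of all tested genes called in the same fit.

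Summed over the 13 genes, mitochondrial FPKM was 25540.5, 15711 and 18837 in Light and 29052, 23292 and 24629 in Dark. Light 1 lay within the Dark range and the other Light libraries below it. The log2 ratio of the mean sums was -0.36, and it was between -0.57 and -0.21 when any 1 library was left out. As a share of all FPKM, the 13 genes took 5.56%, 3.33% and 4.06% in Light and 7.07%, 5.36% and 5.90% in Dark. These shares give each gene its level per length. Weighted by annotated length, to approximate shares of fragments, they were 2.10%, 1.39% and 1.71% in Light and 2.68%, 2.08% and 2.29% in Dark. Among the 50 most abundant genes of a library, 8, 8 and 8 were mitochondrially encoded in Light and 12, 9 and 12 in Dark.

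For 6 of the 13 genes the libraries' shares of that sum did not overlap between the groups. Of all tested genes, 52.6% (5822) did not overlap in FPKM, which is another measure than a share. mt-Co1 took 12.0%, 15.5% and 15.9% of the mitochondrial sum in Light and 17.9%, 17.9% and 19.0% in Dark. mt-Co3 took 9.19%, 10.1% and 10.4% in Light and 6.37%, 7.88% and 6.85% in Dark. mt-Nd3 took 1.98%, 2.49% and 2.29% in Light and 0.986%, 1.32% and 1.20% in Dark. The share of mt-Nd3 was thus higher in every Light library, and so was that of mt-Co3. mt-Nd2 also had the larger shares in Light, at 6.73% ± 0.546 against 5.78% ± 0.314 in Dark (SD, n = 3 each). mt-Nd5 and mt-Nd6 had the smaller ones, at 3.37% ± 0.351 and 3.06% ± 0.241 in Light against 3.90% ± 0.144 and 3.45% ± 0.104 in Dark (SD, n = 3 each). Shares sum to a fixed total, so they are not independent of each other.

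**Figure D4:**
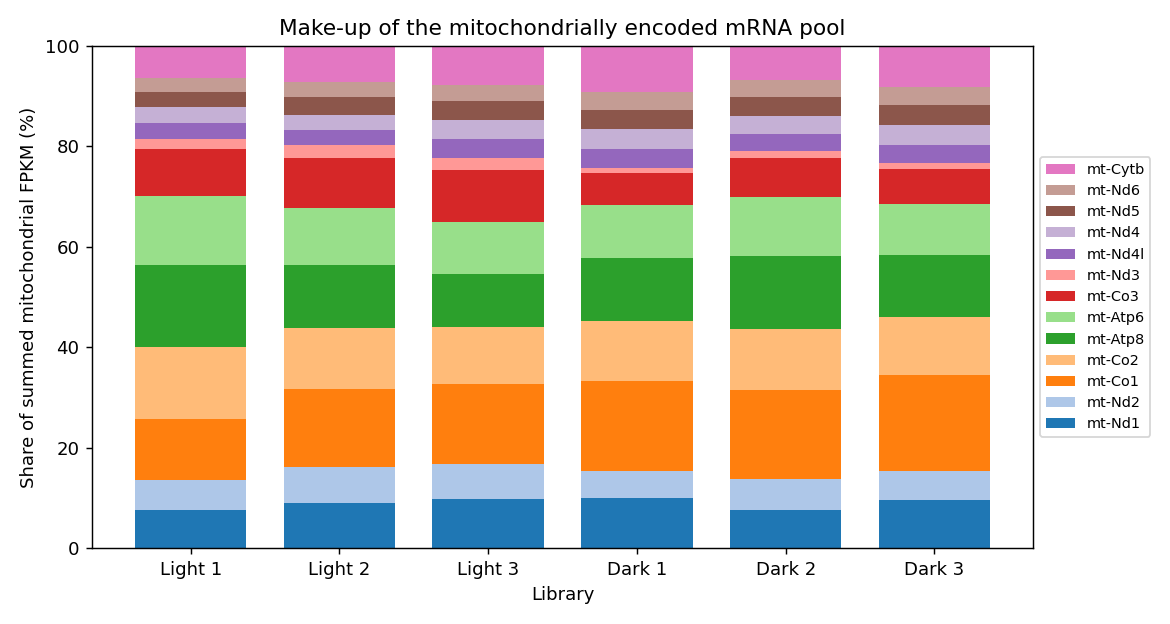
Share of the summed mitochondrial FPKM taken by each of the 13 genes (%), stacked in genome order from the bottom, with the 3 Light libraries left of the 3 Dark libraries. The mt-Co1 band (darker orange) is narrower in Light, at 12.0% to 15.9%, than in Dark, at 17.9% to 19.0%, and the mt-Co3 band (darker red) is wider in Light.

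Across the 13 genes, which share all 6 libraries and differ in base composition, the change ran lower in longer genes (Spearman rho = -0.53 with annotated length) and had a rho of -0.34 with GC content. These are descriptions over 13 points. mt-Nd5, the longest at 1824 bases, and mt-Co1, at 1545 bases, were among the called decreases, and mt-Nd3, with 348 bases, was the called increase. The short mt-Nd4l, at 297 bases, had a change of -0.50.

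The nuclear genes whose products join the mitochondrial ones showed another picture. The 79 tested nuclear genes listed for complexes I to V are called subunits here, though Cox7a2l is an assembly factor and Atpif1 an inhibitor. Of these 79, 19 were called higher (24.1%, beside 19.2% of all genes), Cox7a2l and Atpif1 among them, and 0 lower. Their median change was 0.22. After scaling every library to the same FPKM total, 5 were called higher and 6 lower, and the median was 0.08. With that scaling the median change of all tested genes was -0.13 instead of -0.01, and 1212 were called higher and 2902 lower instead of 2128 and 1810, while the 4 called mitochondrial genes remained called in the same directions. The other 60 subunits were not called by limma, and at an unadjusted p under 0.05 the counts over the 79 were 38 higher and 1 lower, beside 25.9% of all tested genes higher and 24.1% lower at that threshold.

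By complex, 10 of 36 nuclear subunits of complex I were called higher (27.8%, beside 19.2% of all genes), with a median of 0.24. With libraries scaled to the same total, 1 subunit was called higher in each complex, and 1, 1, 0, 2 and 2 were called lower in complexes I to V. Ndufb4, an accessory membrane subunit, averaged 50.3 ± 1.82 FPKM in Light and 37.6 ± 5.32 FPKM in Dark (SD, n = 3 each; change 0.42, limma adjusted p = 0.0224). Ndufs8, an iron-sulphur subunit, averaged 92.5 ± 5.84 FPKM in Light and 70.9 ± 8.28 FPKM in Dark (SD, n = 3 each; change 0.38, limma adjusted p = 0.0236). Complex II, which has no mitochondrially encoded subunit, had 1 of 4 called higher (25.0%), the iron-sulphur subunit Sdhb (change 0.40, limma adjusted p = 0.0194). For complex III, the partners of mt-Cytb, 1 of 9 was called higher (11.1%, a smaller share than that of all genes). This was Uqcrq, a small subunit beside cytochrome b, at 137 ± 11.6 FPKM in Light and 87.2 ± 9.83 FPKM in Dark (SD, n = 3 each; change 0.64, limma adjusted p = 0.00568).

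For complex IV, 3 of 13 were called higher (23.1%, beside 19.2% of all genes). Among them Cox7a2l, a supercomplex assembly factor, changed by 0.62 (limma adjusted p = 0.00832) and the core-binding subunit Cox4i1 by 0.41 (limma adjusted p = 0.0315), against the decrease of 0.72 in mt-Co1. For complex V, 4 of 17 were called higher (23.5%, beside the same 19.2%). They included Atp5g1, a subunit of the rotor ring (change 0.42, limma adjusted p = 0.0208), and Atpif1, the inhibitor of the enzyme's reverse reaction (change 0.27, limma adjusted p = 0.0285). Uqcrq and Cox7a2l remained called in all alternatives run. The other 6 named subunits lost their call without Light 2 and without Light 3, and Ndufs8, Sdhb, Cox4i1, Atp5g1 and Atpif1 also without Dark 3, and Cox4i1 and Atpif1 also without Dark 1. With libraries scaled to the same total Ndufb4, Cox4i1 and Atpif1 lost their call (changes 0.28, 0.27 and 0.13), as did all of the 6 but Sdhb with no filter on low values and Atpif1 under quantile normalization (0.11), with adjusted p up to 0.121 over all alternatives.

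Library order within the groups also ran the other way in these nuclear subunits. Light 2, the lowest Light library for every mitochondrial gene, was the highest Light library for 61 of the 79 nuclear subunits (77.2%, beside 32.7% of all tested genes). Dark 1, the highest Dark library for 12 of 13 mitochondrial genes, was the lowest for 72 of 79 (91.1%, beside 38.3%). At the other ends, Light 1 was the lowest Light library for 58 of 79 (73.4%, beside 35.8%). Dark 2 was the highest Dark library for 56 of 79 (70.9%, beside 46.0%). The part of these library differences in the comparison of Light with Dark was not tested.

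**Figure D5:**
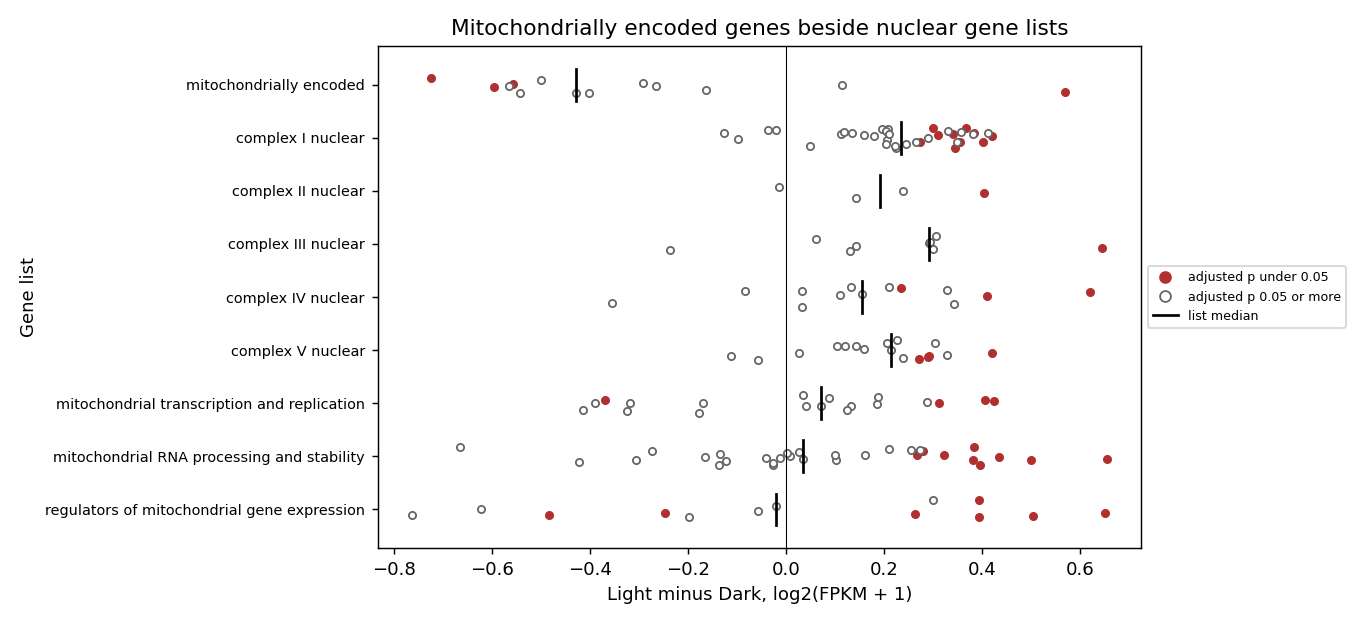
Light minus Dark change on the log2(FPKM + 1) scale for each mitochondrially encoded gene (top line) and each tested member of 8 nuclear gene lists, with the list median as a black bar and called genes filled in red. The mitochondrial median is at -0.43, and the medians of the 5 lists of nuclear subunits lie between 0.16 and 0.29. Vertical scatter within a line has no meaning.

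Genes that copy and transcribe mitochondrial DNA were mixed. Of 19 tested, 3 were called higher (15.8%, beside 19.2% of all genes) and 1 lower (5.26%, beside 16.4%), with a median of 0.07 (-0.05 with libraries scaled to the same total). The helicase gene Twnk changed by 0.42 (limma adjusted p = 0.00827) and the topoisomerase gene Top1mt by 0.41 (limma adjusted p = 0.0129). Tfb2m, which opens the mitochondrial promoters for the polymerase, averaged 8.12 ± 0.548 FPKM in Light and 10.8 ± 1.04 FPKM in Dark (SD, n = 3 each; change -0.37, limma adjusted p = 0.0231). The polymerase gene Polrmt had a change of 0.19 (95% confidence interval -0.05 to 0.42) and Tfam, which packages the DNA, one of -0.18 (-0.46 to 0.11), and neither was called. Top1mt lost its call without Light 2, Light 3 or Dark 3, and Tfb2m without each of these and without Dark 1 (adjusted p up to 0.0596 for Top1mt, and 0.938 for Tfb2m when libraries were scaled to an equal mitochondrial sum).

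Among 31 genes that cut, modify, stabilise or degrade mitochondrial RNA, 9 were called higher (29.0%, beside 19.2% of all genes) and 0 lower (beside 16.4%), with a median of 0.04 (4 higher, 1 lower and a median of -0.10 when libraries were scaled to the same total). Hsd17b10, a subunit of the enzyme that cuts tRNAs at their 5′ ends out of the long transcripts, averaged 135 ± 9.57 FPKM in Light and 86.0 ± 12.2 FPKM in Dark (SD, n = 3 each; change 0.65, limma adjusted p = 0.00647). Pus1, a pseudouridine synthase, changed by 0.50 (limma adjusted p = 0.00778). Twnk, Hsd17b10 and Pus1 remained called in all alternatives run. At an unadjusted p under 0.05 the RNA-processing genes counted 11 higher and 2 lower, beside the same 25.9% and 24.1% of all tested genes. Lrpprc, which protects mitochondrial mRNAs from decay, had a change of 0.04 (95% confidence interval -0.21 to 0.28).

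Of 13 regulators of mitochondrial gene expression, mostly transcription factors and their coactivators, 5 were called higher (38.5%, beside 19.2% of all genes) and 2 lower (15.4%, beside 16.4%), with a median of -0.02 (4 and 4, with a median of -0.13, at the same total). Myc averaged 50.3 ± 2.66 FPKM in Light and 31.6 ± 0.462 FPKM in Dark (SD, n = 3 each; change 0.65, limma adjusted p = 0.000769). Ppard changed by 0.50 (limma adjusted p = 0.00282), and both remained called in all alternatives run. Gabpb2, of the GA-binding protein family, changed by -0.48 (limma adjusted p = 0.0164) and Yy1 by -0.25 (limma adjusted p = 0.0430). At an equal mitochondrial sum Yy1 had a change of 0.11, where the median over all tested genes was 0.33. Gabpb2 lost its call without Light 2, Light 3 or Dark 3, and Yy1 without any 1 library other than Dark 2. Yy1 also lost it under quantile normalization, median centring and no filter on low values (limma adjusted p = 0.0620, 0.0679 and 0.0744, and up to 0.733 over all alternatives), and Gabpb2 had a change of -0.14 at an equal mitochondrial sum (limma adjusted p = 0.640).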

How the data were processed

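Which mode of the dual-mode mRNA kit was used on the TRIzol-extracted RNA is not stated in the sources used here, and it bears on how mitochondrial mRNAs are captured. HISAT2 and the build mm10 (GRCm38) are named, per the submitters' processing notes. Values were deposited by the authors as FPKM, per the file headers. No source used here gives the program, annotation, strand setting or depth behind them, and low values held no whole-read steps. Precision therefore rests on 3 libraries a group.

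Libraries were grouped by their titles. The 11068 genes that averaged 1 FPKM or more were tested on log2(FPKM + 1) with limma 3.58.1 in R 4.3.3 (eBayes, trend and robust, group only, 2-sided) and Benjamini-Hochberg adjustment over all of them. The procedure was tested on simulated data, in which far fewer genes were changed than were called here. It recovered 44.8% of 67 genes changed by 0.5 on the log2 scale, 85.1% of 67 changed by 1 and all 66 changed by 2. Of the 160 genes it called, 7 were unchanged. A gene that was not called may therefore still have changed. The simulated noise was independent between genes. In the real libraries genes deviated together, as where all 13 mitochondrial genes kept 1 order of the Light libraries. These rates may thus not hold for the real data. Ratios within libraries were compared by exact permutation. Positions, lengths and sequences come from the GENCODE M21 transcripts (GRCm38). Nuclear copies come from blastn 2.17.0 with annotated pseudogene transcripts (at least 95% identity over 80% of the copy).

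All mt- genes are described, and from each nuclear list up to 2 called members per direction with the smallest p. Other genes (Polrmt, Tfam, Lrpprc) were named after their values were seen. The genes and lists were chosen with earlier results of these data known. The alternatives were quantile normalization, median centring, equal FPKM totals with and without mitochondrial genes, no low-value filter, a mean of 5 FPKM, each library left out, the replicate number as a block, and 0.1 as the pseudocount. An equal mitochondrial sum, and leaving out Light 1 and Dark 1 together, were added after seeing the data.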

Additional observations from a re-analysis of the deposited data

How the results depend on the processing

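Precision is limited by 3 libraries a group and unknown depth. The 4 called mitochondrial mRNAs remained called under median centring, both equal-total scalings, a mean of 5 FPKM and a pseudocount of 0.1. Quantile normalization called 8 (61.5%, beside 34.2% of all tested genes), all lower, among them neither mt-Nd3 nor mt-Atp6. Without a filter on low values 2 were called (mt-Nd3 and mt-Co1, 15.4%). That fit tested 19300 genes and called 2606 (13.5%), beside 3938 of 11068 (35.6%) with the filter. Scaling to an equal mitochondrial sum called 1 (mt-Nd3, change 0.95) and 2564 genes in all, 2170 higher and 394 lower. The median change of all tested genes was then 0.33, so changes in that setting are shifted upward. Without Light 1 and Dark 1 together 9 were called (69.2%, beside 32.9% of all tested genes). With 1 library left out, 2 to 8 were called, and 1228 to 5874 genes in all. mt-Nd3 and mt-Co1 were called in each of those 6 fits.

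The sign of mt-Co3 reversed to -0.14 with quantile normalization, -0.029 at the same total, -0.056 at the same non-mitochondrial total and -0.024 without Light 1, where leaving out 1 library gave -0.024 to 0.26. At an equal mitochondrial sum, mt-Nd2 reversed to 0.22, mt-Co2 to 0.089 and mt-Atp6 to 0.12. These members were not called in those fits. Counting each gene under each of 16 settings, 166 results kept direction and call, 22 gained a call, 13 lost one and 7 changed sign, and the cause was not tested.

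With the replicate number as a block, 9 of 13 mitochondrial mRNAs (8 lower, 1 higher) and 6690 genes in all (60.4%) were called. The mitochondrial ones were the 4 called without it and mt-Nd1, mt-Nd2, mt-Nd4l, mt-Nd4 and mt-Cytb. Deviations from the group mean correlated at 0.69 for number 1, 0.64 for number 2 and -0.09 for number 3, so the numbers were not taken to pair the libraries. Light 1 correlated at -0.68 with Dark 2, and Light 2 at -0.67 with Dark 1. The 3 deviations of a group sum to 0, so these correlations are not independent and cannot settle whether the libraries were paired. Light 3 correlated best with Dark 2 (0.08), not with its own number.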
